A study of Mus musculus with 10 samples.

Results

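Tuft cells sorted from the thymus were compared with tuft-depleted epithelium of the small intestine (SI) by RNA-seq, using all 4 thymic tuft libraries and all 3 SI epithelium libraries out of 10 libraries in the series. The members were chosen by the count columns of these 7 libraries, and the fit used them alone. The 3 SI tuft libraries entered only to pick thymus-restricted genes and for a few values set beside the others. Each library came from 1 naive male mouse of 12 weeks. Every mouse, in all groups, was C57BL6 and carried Flare25, a fluorescent reporter of the cytokine gene Il25, on both alleles, so no group carried an unmodified Il25 locus. Thymic tuft cells were gated as DAPI-, CD45-, EPCAM+ and Flare25+, and SI epithelium as DAPI-, CD45-, EPCAM+ and Flare25-. The thymic libraries held 1350 to 1900 sorted cells and the SI epithelium libraries 52000 to 57000. Thymic cells were released with Liberase and DNase and enriched on Percoll, whereas SI cells were released with DTT and EDTA. Organ, dissociation, cell number and tuft identity therefore cannot be told apart, and thymic epithelium without the reporter is not analysed here.

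Tuft cells are rare epithelial cells that sense luminal chemicals through a cascade shared with taste cells, in which a receptor signals through the G protein subunit Gnat3 and the phospholipase Plcb2 to open the cation channel Trpm5. Their development depends on the transcription factor Pou2f3, and in the intestine they secrete IL-25 and act on type 2 lymphoid cells. In the thymus, tuft cells lie in the medulla, where medullary epithelial cells present tissue antigens to developing T cells under regulators such as Aire and Fezf2. The reporter-negative SI epithelium holds the other lineages of the villus and crypt: absorptive enterocytes, mucus-secreting goblet cells, antimicrobial Paneth cells, hormone-secreting enteroendocrine cells and dividing progenitors.

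The libraries held 38659882 to 51153413 gene counts in the thymic group and 52354113 to 73574745 in SI epithelium. Levels are given below as CPM, the usual depth-normalised count, with library sizes scaled by the trimmed mean of M-values (scaled CPM), in thymic libraries 1 to 4 or SI epithelium libraries 1 to 3, in that order, and means as mean ± SD (n = 4 and n = 3). Log2 fold changes, written as log2 ratios beside single genes, are of thymic tuft over SI epithelium from edgeR's quasi-likelihood test, with Benjamini-Hochberg adjusted p (FDR) over all 18720 genes tested. They compare 1 gene between groups. No level is compared between genes, since CPM is not per length. The spread between replicates, as edgeR's common biological coefficient of variation, was 0.758 among thymic and 0.252 among SI epithelium libraries.

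Counts were shared between certain libraries, and this bears on every large fold change. Over 282 thymus-restricted genes (at least 2000 counts over the thymic libraries and at most 2 over the SI tuft libraries), the counts of each SI epithelium library followed those of 1 thymic library: SI library 1 followed thymic library 3, SI library 2 thymic library 2, and SI library 3 thymic library 1. The fitted shares of the partner's counts were 0.505%, 0.555% and 0.847%, and the median ratios over the same genes 0.585%, 0.601% and 0.600%. In SI library 3 the fitted line lay above most genes, and its share was 0.525% when trimmed and 1.06% with relative weights, both chosen after seeing the data. The opposite direction was measured over 6 genes abundant in SI epithelium and selected for being nearly absent from thymic library 4. The median ratio to the SI partner was 0.914% in thymic library 3, 0.948% in library 2 and 0.876% in library 1. These partners were carried over from the first direction and not found anew. The scatter of log2 ratios was least for the partner, but narrowly for thymic library 3 (0.251 against 0.259 for SI library 2). The same held for thymic library 2 (0.332 against 0.375 for SI library 1), while thymic library 1 had 0.125 against at least 0.365. Over the 282 genes, thymic library 4 had the widest scatter of log2 ratios with each SI epithelium library (1.99, 2.12 and 2.14 for SI libraries 1 to 3). The same fit still gave it shares of 0.0273%, 0.179% and 0.157%, and gave SI library 1 a 0.178% share of thymic library 1. Partners were chosen by least scatter, narrowly for SI library 2 (1.52 against 1.61 for thymic library 3). Only the partner's share was subtracted. The 6 genes of the opposite direction, by their selection, say nothing of library 4. The shares subtracted below came from these 282 and 6 genes, so what subtraction leaves of those genes is not an independent check. The source of the shared counts was not tested.

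**Figure D1:**
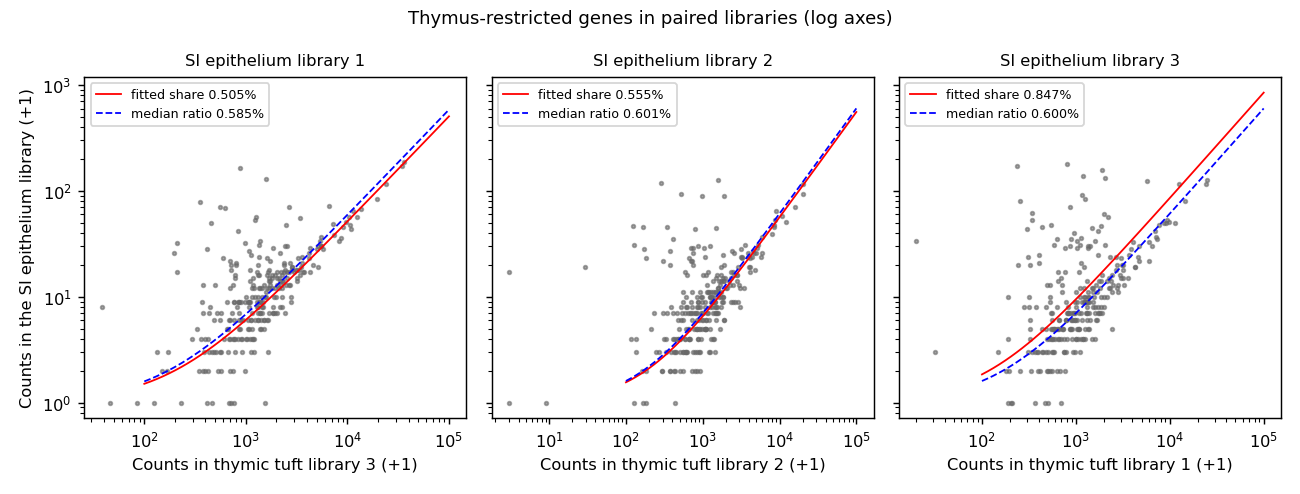
Counts of 282 thymus-restricted genes in each SI epithelium library (vertical axis) against the thymic tuft library whose counts it followed (horizontal axis), both plus 1 on log axes, 1 point per gene. Red lines are the fitted shares of 0.505%, 0.555% and 0.847% and blue dashed lines the median ratios; points rise along the lines, and genes above them have SI counts beyond the share.

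Of the 18720 genes, 5370 (28.7%) were higher in thymic tuft cells, 3984 (21.3%) were lower and 9366 were not called at an FDR below 0.05. Counts of list members called, given below, are to be set beside these shares. The libraries of the groups did not overlap for 56.7% of genes. The median log2 fold change was 0.13. A difference of at least 16-fold was found for 2887 of the genes called higher and 809 of those called lower. When the shared counts were subtracted, 5543 genes (29.6%) were higher and 3580 (19.1%) lower of 18713 tested. Among the 2887 genes, 810 lost at least 90% of their SI epithelium counts on subtraction, so that their fold changes have no firm upper end. Thymus-restricted genes on which the share was fitted were not left out of this count.

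**Figure D2:**
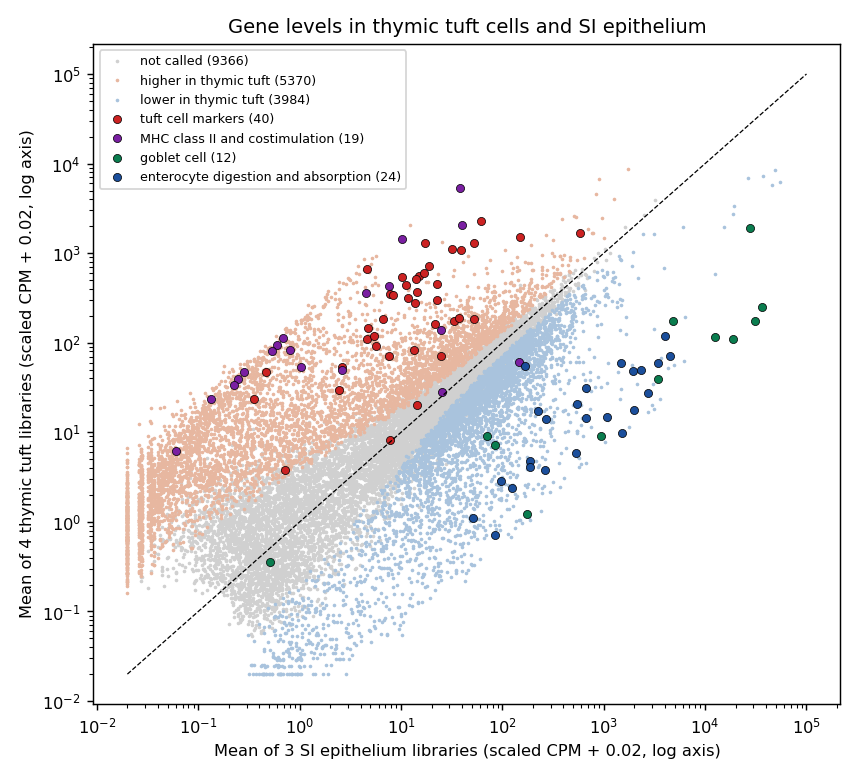
Mean level of each of the 18720 genes in SI epithelium (horizontal axis) and thymic tuft cells (vertical axis), as scaled CPM plus 0.02 on log axes, with the dashed line at equality. Small points are the 5370 genes higher, 3984 lower and 9366 not called; tuft markers and MHC class II genes lie above the line apart from Ifi30, and called goblet and enterocyte genes below it.

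Stretches of promoter are shown for 5 genes of 4 lists, from RefSeq sequences of GRCm38.p6 that span 250 bases before to 50 after the gene start, with the motif searched in capitals on either strand. H2-Aa and H2-Eb1 are MHC class II genes with a Y box (CTGATTGG), Ifit1 is an interferon-stimulated gene with the interferon-stimulated response element (GAAA, any 2 bases, then GAAA), Kctd12 is a tuft marker with an octamer (ATGCAAAT), which POU-domain factors bind, and Alpi is an enterocyte gene with an HNF4 motif (CAAAGTCCA). The genes and motifs were chosen after their values were seen.
H2-Aa (chr17:34287811-34287930, minus strand): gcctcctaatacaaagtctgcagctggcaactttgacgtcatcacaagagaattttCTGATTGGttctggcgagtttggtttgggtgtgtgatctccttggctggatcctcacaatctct
H2-Eb1 (chr17:34305749-34305868, plus strand): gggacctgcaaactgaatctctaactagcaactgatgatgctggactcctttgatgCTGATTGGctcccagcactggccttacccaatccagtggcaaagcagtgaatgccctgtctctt
Ifit1 (chr19:34640730-34640849, plus strand): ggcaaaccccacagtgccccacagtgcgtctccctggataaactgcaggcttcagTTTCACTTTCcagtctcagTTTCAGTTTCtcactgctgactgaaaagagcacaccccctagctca
Kctd12 (chr14:102982734-102982853, minus strand): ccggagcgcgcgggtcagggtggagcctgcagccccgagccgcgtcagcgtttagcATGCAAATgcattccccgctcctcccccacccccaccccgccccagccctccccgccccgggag
Alpi (chr1:87101562-87101681, minus strand): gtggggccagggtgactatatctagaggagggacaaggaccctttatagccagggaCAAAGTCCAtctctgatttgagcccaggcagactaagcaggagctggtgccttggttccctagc

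The Y box was present in the promoters of 4 of 14 MHC class II list members found in the table (H2-Aa, H2-Eb1, H2-Eb2 and H2-Oa), against 4.10% of all 32851 promoters. The interferon-stimulated response element was present in 11 of 20 interferon-stimulated genes, against 3.44%. The octamer was present in 3 of 34 tuft markers (Hpgds, Kctd12 and Sucnr1), against 1.74%, and the HNF4 motif in 3 of 21 enterocyte genes (Alpi, Cyp3a11 and Treh), against 0.475%. A list gene was counted if any of its promoters matched, whereas the percentages are of single promoters, so the shares are not of the same unit. These are matches of letters and not measured binding sites.

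The tuft program was higher in the thymic libraries almost throughout. Of 40 tuft cell markers, 38 rose, none fell, and the median log2 fold change was 4.61 against 0.13 over all genes. Of 10 tuft lineage transcription factors, 9 rose and 1 fell. Pou2f3, the master regulator of the lineage, stood at 508, 564, 570.1 and 585 CPM in the thymic libraries and at 13.7, 13.6 and 17.7 CPM in SI epithelium (log2 ratio 5.22, SE 0.18, FDR = 3.92e-08). Spib, an ETS factor shared with lymphoid cells, stood at 1228, 1516, 1316 and 1211 CPM against 29.6, 24.4 and 22.6 CPM (log2 ratio 5.69, SE 0.19, FDR = 3.53e-08). Every thymic library was higher than every SI epithelium library for both, and 56.7% of all genes tested had groups that did not overlap. Sox9, a factor of tuft, Paneth and progenitor cells, rose from 145 ± 17.3 to 646 ± 66.2 CPM (log2 ratio 2.15, SE 0.16, FDR = 2.79e-06). Ascl2, a stem cell factor that also belongs to the list, was the member that fell, with 9.05 ± 1.96 CPM in thymic tuft cells and 20.7 ± 2.64 CPM in SI epithelium (log2 ratio -1.19, SE 0.33, FDR = 0.0132), and was not called without SI library 1 (-1.12) or 3 (-1.18).

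Il25 is the gene the sort was made on, so its difference describes the gate. It stood at 37.9, 35.6, 9.48 and 10.1 CPM in the thymic libraries and 0.195, 0.268 and 0.545 CPM in SI epithelium (log2 ratio 6.09, SE 0.79, FDR = 1.52e-04), and thymic libraries 1 and 2 were over 3 times as high as libraries 3 and 4. Epcam, whose product was used to gate both populations, was at 736, 791, 846 and 968 CPM against 1494, 1364 and 1581 CPM (log2 ratio -0.82, SE 0.14, FDR = 8.25e-04). Ptprc encodes CD45, on which cells were gated out, yet its transcript was at 56.1, 80.97, 64.3 and 80.2 CPM in the thymic libraries and 11.4, 8.46 and 3.04 CPM in SI epithelium (log2 ratio 3.21, SE 0.43, FDR = 1.81e-04).

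Other tuft markers followed the same direction. Dclk1, a microtubule-associated kinase used to stain tuft cells, was at 1043, 1065, 979.7 and 1395 CPM against 29.97, 28.02 and 37.3 CPM (log2 ratio 5.14, SE 0.21, FDR = 8.79e-08). Pik3r5, a regulatory subunit of phosphoinositide 3-kinase gamma, rose from 61.8 ± 9.39 to 2281 ± 325 CPM (log2 ratio 5.21, SE 0.20, FDR = 6.27e-08). Sh2d6 rose from 148 ± 62.8 to 1503 ± 224 CPM (log2 ratio 3.34, SE 0.29, FDR = 8.38e-06), and Cd24a, a surface protein also found on Paneth cells, from 586 ± 33.8 to 1683 ± 578 CPM (log2 ratio 1.52, SE 0.24, FDR = 5.21e-04). Kctd12, whose promoter is shown above, stood at 82.1 ± 31.7 CPM against 13.5 ± 1.895 CPM (log2 ratio 2.60, SE 0.31, FDR = 7.64e-05). Siglecf and Ffar3 were the markers without a call. Siglecf, a sialic acid-binding lectin that marks intestinal tuft cells, was at 20.95, 22.3, 23.8 and 14.3 CPM in the thymic libraries and 13.9, 10.9 and 18.2 CPM in SI epithelium, with overlapping groups (log2 ratio 0.50, SE 0.32, FDR = 0.225). In the 3 SI tuft libraries it had 45400, 43502 and 40709 counts.

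**Figure D3:**
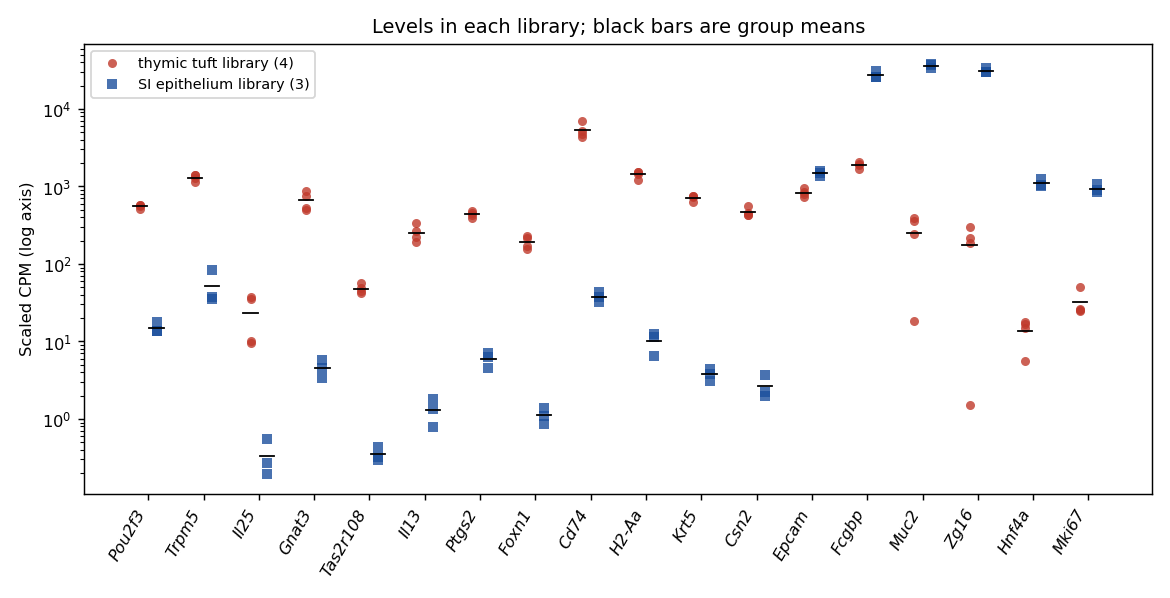
Level of 18 genes in each thymic tuft library (red circles, n = 4) and each SI epithelium library (blue squares, n = 3), as scaled CPM on a log axis, with black bars at the group means. The groups do not overlap for any of these 18 chosen genes, nor for 56.7% of all genes tested. Muc2 and Zg16 are far lower in 1 thymic library (18.5 and 1.52 CPM in library 4) than in the other 3.

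The taste signalling cascade was mostly higher in the thymic libraries. Of 19 members tested, 12 rose, 4 fell and 3 were not called, with a median log2 fold change of 4.64. Over all genes tested, 28.7% rose and 21.3% fell. Without any 1 SI library, 2 members were lower. Gnat3, the taste G protein alpha subunit, was at 524, 757, 502 and 875 CPM in the thymic libraries and 4.48, 5.803 and 3.43 CPM in SI epithelium (log2 ratio 7.19, SE 0.33, FDR = 1.86e-07). Plcb2 was at 1232, 1460.2, 1411 and 1072 CPM against 12.7, 14.7 and 23.9 CPM (log2 ratio 6.24, SE 0.29, FDR = 1.93e-07), and Trpm5 at 1128, 1391, 1290.2 and 1387 CPM against 37.7, 35.1 and 83.4 CPM (log2 ratio 4.64, SE 0.34, FDR = 2.92e-06). None of these 3 genes overlapped between the groups, and neither did 56.7% of all genes tested. The members that fell were Itpr3, Itpr1, Trpm4 and Gnat2. Itpr3, the calcium release channel downstream of Plcb2 in taste cells, was lower at 113 ± 28.03 CPM against 242 ± 39.97 CPM (log2 ratio -1.10, SE 0.21, FDR = 0.00187), and Trpm4, a relative of Trpm5, at 17.1 ± 14.2 against 123 ± 10.96 CPM (log2 ratio -2.84, SE 0.57, FDR = 0.0023). The call of Itpr1 (log2 ratio -0.84, FDR = 0.0422) was lost in 14 of 20 alternative settings, among them leaving out any 1 SI library or thymic library 2, 3 or 4 (log2 ratio -0.65 to -0.86).

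All 29 bitter taste receptors (Tas2r genes) that passed the filter rose, of 35 in the list. These low genes passed only through the thymic libraries, so the count describes which receptors were detected, as it does in part for the cornified, keratin, Hox and organ-restricted lists below. Tas2r108 was at 48.7, 56.6, 44.9 and 42.4 CPM in the thymic libraries and 0.325, 0.439 and 0.299 CPM in SI epithelium (log2 ratio 7.09, SE 0.34, FDR = 2.40e-07). Tas2r138 was at 33.04, 44.3, 26.8 and 34.8 CPM against 0.0866, 0.195 and 0.141 CPM (log2 ratio 7.93, SE 0.47, FDR = 7.55e-07), and Tas2r137 at 28.6, 38.2, 12.8 and 22.8 CPM against 0.108, 0.317 and 0.123 CPM (log2 ratio 7.14, SE 0.66, FDR = 1.42e-05). The 35 receptors summed to between 152.3 and 255.5 CPM in the thymic libraries and between 0.996 and 1.71 CPM in SI epithelium. On subtraction the SI epithelium mean was 0.0316 CPM for Tas2r108 and 0 CPM for Tas2r138.

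Receptors for metabolites and nucleotides went mostly the other way, with 3 of 18 tested members higher, 9 lower and a median log2 fold change of -1.48. Shares over all genes were 28.7% higher and 21.3% lower. Hcar2, the receptor for niacin and beta-hydroxybutyrate, rose to 32.98, 28.8, 29.6 and 36.8 CPM from 0.953, 0.536 and 0.316 CPM (log2 ratio 5.74, SE 0.48, FDR = 6.93e-06). Sucnr1, the succinate receptor, and P2ry14 were the other members that rose. P2ry1, an ADP receptor, was at 4.02, 0.553, 1.51 and 0.264 CPM in the thymic libraries against 62.8, 54.9 and 56.97 CPM (log2 ratio -5.18, SE 0.78, FDR = 4.02e-04), and Gpr35 at 3.93, 17.1, 1.08 and 3.91 against 39.7, 34.9 and 52.3 CPM (log2 ratio -2.70, SE 0.74, FDR = 0.0124). The ATP-gated channel P2rx4 fell from 208 ± 14.8 to 99.3 ± 10.3 CPM (log2 ratio -1.07, FDR = 1.99e-04).

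Enzymes of eicosanoid synthesis, which make prostaglandins and leukotrienes, were higher for 16 of 23 members and lower for 4, with a median of 4.73. Ptgs1 (COX-1) was at 528, 538, 442 and 534 CPM against 14.6, 13.2 and 14.2 CPM (log2 ratio 5.19, SE 0.17, FDR = 3.30e-08). Ptgs2 (COX-2) was at 388, 449, 434 and 488 CPM against 7.04, 6.34 and 4.55 CPM (log2 ratio 6.20, SE 0.23, FDR = 4.73e-08), and Alox5, the 5-lipoxygenase, at 364, 363, 496 and 555 CPM against 11.1, 8.24 and 14.5 CPM (log2 ratio 5.30, SE 0.29, FDR = 4.51e-07). Both cyclooxygenases and the lipoxygenase were thus high in all 4 thymic libraries. Among the members that fell, Hpgd degrades prostaglandins and was at 26.3 ± 4.66 CPM against 145 ± 38.01 CPM (log2 ratio -2.46, SE 0.22, FDR = 1.26e-05), and Lta4h, which makes leukotriene B4, was at 23.9 ± 9.48 against 122 ± 6.33 CPM (log2 ratio -2.35, SE 0.30, FDR = 1.31e-04). Cbr1, a carbonyl reductase, fell from 167 ± 16.8 to 55.02 ± 15.6 CPM (log2 ratio -1.60, FDR = 2.27e-04).

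The type 2 cytokine circuit rose in 14 of 18 members and fell in 1 (2 without thymic library 4), with a median of 3.98. Il13, a cytokine usually attributed to type 2 lymphocytes, stood at 191, 222, 263 and 339 CPM in the thymic libraries and at 1.82, 1.34 and 0.791 CPM in SI epithelium (log2 ratio 7.60, SE 0.38, FDR = 3.03e-07). With the shared counts subtracted, its SI epithelium mean was 0.00722 CPM, and the 3 SI tuft libraries held 2, 1 and 0 counts. Il17rb, a subunit of the IL-25 receptor, was at 267, 240.4, 329 and 279 CPM against 12.4, 11.1 and 17.8 CPM (log2 ratio 4.34, SE 0.23, FDR = 4.32e-07). Il4ra, the receptor subunit shared by IL-4 and IL-13, rose from 45.6 ± 9.61 to 242 ± 37.98 CPM (log2 ratio 2.41, SE 0.21, FDR = 8.38e-06). Il33, an epithelial alarmin, was the member that fell, from 22.7 ± 4.54 to 7.69 ± 1.08 CPM (log2 ratio -1.56, SE 0.32, FDR = 0.00273).

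Cholinergic and neuronal genes were higher for 9 of 14 tested members and lower for 3. Ache, which encodes acetylcholinesterase, was at 292, 294, 238 and 158 CPM against 11.7, 13.5 and 11.1 CPM (log2 ratio 4.34, SE 0.26, FDR = 8.97e-07). Its relative Bche went in the opposite direction, at 30.4, 56.7, 25.96 and 27.3 CPM against 348, 350.2 and 295 CPM (log2 ratio -3.23, SE 0.28, FDR = 8.55e-06). Syt1, a calcium sensor of vesicle release, was at 154, 161, 121 and 161 CPM against 1.41, 1.07 and 0.843 CPM (log2 ratio 7.08, SE 0.28, FDR = 6.27e-08), whereas Snap25, a vesicle fusion protein of neurons and enteroendocrine cells, was at 35.9, 6.55, 7.87 and 16.97 against 195, 215 and 165 CPM (log2 ratio -3.51, SE 0.53, FDR = 3.98e-04). The vesicle protein gene Vamp2 rose from 102 ± 6.88 to 370.2 ± 26.1 CPM (log2 ratio 1.86, FDR = 3.34e-06), and the choline transporter Slc44a1 fell from 195 ± 17.9 to 116 ± 23.3 CPM (log2 ratio -0.74, FDR = 0.00633).

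Signalling genes best known from blood cells rose in 19 of 24 tested members and fell in none, with a median of 2.66. Fyb, an adaptor of T cell and platelet signalling, was at 533, 599, 584 and 661 CPM against 14.2, 15.8 and 20.8 CPM (log2 ratio 5.14, SE 0.20, FDR = 7.11e-08), and Lcp1, an actin-bundling protein of leukocytes, at 683, 898, 802 and 833 against 38.5, 40.8 and 42.7 CPM (log2 ratio 4.31, SE 0.17, FDR = 6.13e-08). Syk, a kinase of B cells and myeloid cells, was not called, at 31.1 ± 7.94 against 19.4 ± 4.11 CPM (FDR = 0.0831), but was called higher without thymic library 2 (log2 ratio 0.86). Beside this list, markers of blood cells were also detected. The T cell list summed to 76.8 to 129.8 CPM in thymic and 46.6 to 57.7 CPM in SI epithelium libraries, the B cell list to 92.5 to 138.5 against 1.93 to 4.44 CPM, and the myeloid and dendritic list to 297 to 362 against 24.8 to 35.5 CPM. Of these lists 7 of 15 T cell, 3 of 5 B cell and 9 of 10 myeloid and dendritic members tested rose. Over all genes tested, 28.7% rose. The T cell count was 4 without any 1 SI library or thymic library 1. The myeloid and dendritic count was 4 without SI library 2 and 5 without SI library 3 or thymic library 3. Their part in the result was not tested.

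Members of the blood cell lists differed in how evenly the thymic libraries held them. Lyz2, a lysozyme of macrophages, was at 194, 190.4, 203 and 243 CPM in the thymic libraries and 4.29, 4.34 and 5.13 CPM in SI epithelium (log2 ratio 5.50, SE 0.20, FDR = 4.56e-08), and Ighm, the IgM heavy chain, at 71.1, 91.1, 64.3 and 95.9 against 1.602, 1.88 and 0.404 CPM (log2 ratio 5.97, SE 0.53, FDR = 1.04e-05). Defining markers varied. Of those not called higher, Cd3d had 19, 14, 90 and 0 counts in thymic libraries 1 to 4, Cd79a 353, 1, 4 and 0, Ms4a1 0, 3, 15 and 2, and Adgre1 82, 67, 194 and 3. Of those called higher, Itgam had 1193, 3423, 1975 and 629 counts, Csf1r 139, 638, 516 and 1461, Cd4 548, 96, 622 and 168, and Lck 610, 299, 441 and 8. Cd8a had 599 counts in thymic library 4 and at most 60 in the others. Themis, a gene of developing T cells, was at 13.3, 4.55, 8.99 and 0.2198 CPM against 0.0866, 0.0731 and 0.0703 CPM (log2 ratio 6.42, SE 1.35, FDR = 0.00313). Bcl11b, another T cell factor, was lower in the thymic libraries, at 5.56 ± 3.31 against 33.8 ± 6.203 CPM (log2 ratio -2.60, SE 0.46, FDR = 0.00112). In bulk libraries such as these, a few cells of a type and a low level of its RNA in many cells cannot be told apart.

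Transcription factors that pattern the thymus were mostly higher. Of 10 patterning factors tested, 7 rose and none fell, with a median of 7.23. Foxn1, the transcription factor without which the thymic epithelium does not develop, was at 215, 226, 155 and 169 CPM in the thymic libraries and 1.08, 1.39 and 0.861 CPM in SI epithelium (log2 ratio 7.44, SE 0.29, FDR = 6.13e-08). Eya1 was at 323, 374, 301 and 289.6 against 2.23, 2.37 and 1.46 CPM (log2 ratio 7.32, SE 0.26, FDR = 3.97e-08). After subtraction the SI epithelium means were 0.00722 CPM for Foxn1 and 0.0577 CPM for Eya1. Foxn1 was among the thymus-restricted genes on which the share was fitted, so its small remainder follows in part from the fit.

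Medullary thymic epithelial genes rose for 13 of 17 identifiers tested and fell for 2, with a median of 1.78. Aire, which drives ectopic antigen expression in the medulla, was at 272, 274, 285 and 183 CPM against 2.23, 1.58 and 1.23 CPM (log2 ratio 7.24, SE 0.31, FDR = 1.17e-07). Fezf2, a second such regulator, was at 343, 335, 335 and 277 against 1.93, 1.78 and 1.62 CPM (log2 ratio 7.51, SE 0.20, FDR = 2.72e-08), and the basal keratin Krt5 at 758, 638, 761 and 722 against 4.44, 3.75 and 3.07 CPM (log2 ratio 7.58, SE 0.22, FDR = 2.72e-08). On subtraction no SI epithelium count of Krt5 or Fezf2 was left. Spink5, a protease inhibitor of stratified epithelium, reached 510.5 ± 70.8 CPM against 3.03 ± 0.929 CPM (log2 ratio 7.40, FDR = 6.23e-08). The members that fell were Cldn3, at 79.3 ± 23.4 against 267 ± 10.4 CPM (log2 ratio -1.75, SE 0.23, FDR = 1.62e-04), and Ltbr, at 45.9 ± 10.05 against 112 ± 26.5 CPM (log2 ratio -1.28, SE 0.23, FDR = 0.0011). Among 12 cortical thymic epithelial genes, 7 rose and 3 fell, with a median of 2.90, against 28.7% higher and 21.3% lower over all genes. Psmb11, the cortical proteasome subunit, stayed at 0.765 to 4.75 CPM in the thymic libraries and had no count in SI epithelium, where 3 counts would be 0.0527 to 0.0731 CPM. Tbata was at 304 ± 18.9 against 1.81 ± 0.567 CPM (log2 ratio 7.40, FDR = 5.99e-08), Il7 at 31.7 ± 10.8 against 1.19 ± 0.827 CPM (log2 ratio 4.72, FDR = 1.23e-04) and Ctsl at 323 ± 56.9 against 46.5 ± 6.86 CPM (log2 ratio 2.80, FDR = 2.61e-06). Ccl25, a chemokine of both thymus and small intestine, was lower in the thymic libraries at 279.7 ± 78.6 against 467 ± 25.8 CPM (log2 ratio -0.74, FDR = 0.0119), as were Enpep (log2 ratio -4.62) and Kitl (-3.17).

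MHC class II and costimulatory genes, which present antigen to CD4+ T cells, rose in 17 of 19 members and fell in 1, with a median of 7.13. Cd74, the invariant chain, stood at 4374, 4699.7, 5127 and 6989 CPM in the thymic libraries and 37.6, 43.9 and 32.3 CPM in SI epithelium (log2 ratio 7.13, SE 0.26, FDR = 4.69e-08). H2-Aa was at 1226, 1554, 1547 and 1433 against 11.4, 12.5 and 6.48 CPM (log2 ratio 7.15, SE 0.30, FDR = 8.98e-08), H2-Ab1 at 1658, 2153, 2134 and 2209 against 36.2, 47.6 and 36.3 CPM (log2 ratio 5.67, SE 0.21, FDR = 4.69e-08), and H2-Eb1 at 313, 416, 345 and 373 against 4.18, 5.901 and 3.39 CPM (log2 ratio 6.34, SE 0.26, FDR = 8.86e-08). The lowest thymic library was over 30 times the highest SI epithelium library for each of these 4 genes. Ifi30, a lysosomal reductase, fell from 146 ± 6.78 to 60.4 ± 4.43 CPM (log2 ratio -1.27, SE 0.14, FDR = 5.58e-05). The myeloid, dendritic and B cell sums given above moved with this list, and their part in it was not tested.

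MHC class I presentation rose in 11 of 19 members and fell in 4, or in 2 without SI library 2. B2m, the class I light chain, was at 8715 ± 905 against 1739 ± 171 CPM (log2 ratio 2.33, SE 0.15, FDR = 1.26e-06), H2-K1 at 4541 ± 238 against 847 ± 53.4 CPM (log2 ratio 2.42, FDR = 4.81e-07) and H2-D1 at 2395 ± 186 against 390.4 ± 68.6 CPM (log2 ratio 2.62, FDR = 1.29e-06). Canx, a folding chaperone, and Psmb10, an immunoproteasome subunit, were lower (log2 ratios -0.83 and -1.31), the latter not called without SI library 2 (-1.21). Interferon-stimulated genes rose in 14 of 25 members and fell in 1, with a median of 0.88. For both lists, the shares over all genes were 28.7% higher and 21.3% lower. Ifit1, shown above with its response elements, was at 136, 208, 128 and 186 CPM against 17.1, 18.2 and 19.4 CPM (log2 ratio 3.18, SE 0.23, FDR = 2.42e-06). Oasl2 rose from 139 ± 15.5 to 707 ± 71.2 CPM (log2 ratio 2.35, FDR = 1.50e-06) and Irf7 from 93.9 ± 7.23 to 185 ± 16.9 CPM (log2 ratio 0.98, FDR = 3.84e-04), while Oasl1 fell from 209 ± 19.3 to 80.2 ± 8.09 CPM (log2 ratio -1.38, FDR = 4.06e-05).

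Of 28 chemokine ligands tested, 21 rose and 4 fell, with a median of 6.29. Cxcl10, a ligand of the chemokine receptor CXCR3, was at 362, 472, 320.3 and 551 CPM against 6.39, 7.36 and 8.43 CPM (log2 ratio 5.85, SE 0.27, FDR = 1.63e-07), and Cxcl9, which binds the same receptor, at 235, 303, 141 and 173 against 2.86, 3.68 and 2.83 CPM (log2 ratio 6.10, SE 0.34, FDR = 4.99e-07). Ccl22, a ligand of CCR4, was at 179, 224, 609.9 and 205 CPM against 4.27, 1.46 and 0.966 CPM (log2 ratio 7.10, SE 0.73, FDR = 3.13e-05), with thymic library 3 well above the other 3 libraries. The gene for CCR4 itself was at 63.7, 56.1, 58.9 and 69.4 against 0.3897, 0.219 and 0.246 CPM (log2 ratio 7.76, SE 0.34, FDR = 1.28e-07). Ccl28, an epithelial mucosal chemokine, fell from 74.7 ± 14.4 to 5.62 ± 1.35 CPM (log2 ratio -3.73, FDR = 3.74e-06) and Ccl6 from 315 ± 83.9 to 12.9 ± 8.601 CPM (log2 ratio -4.60, FDR = 1.19e-04).

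Keratins and genes of stratified epithelium were present in the thymic libraries. Of 37 keratins tested, 28 rose and 5 fell, and of 18 genes of the cornified envelope of skin, 18 rose. Krt17 was at 462, 517, 425 and 484 CPM against 2.58, 2.93 and 1.79 CPM (log2 ratio 7.61, SE 0.25, FDR = 3.30e-08), and Krt1, a keratin of differentiating epidermis, at 84.3, 113, 122 and 264 against 1.08, 0.634 and 0.404 CPM (log2 ratio 7.70, SE 0.58, FDR = 3.33e-06), highest in thymic library 4. Sprr1a was at 682, 1190.1, 646 and 1183 CPM against 39.6, 49.7 and 49.5 CPM (log2 ratio 4.32, SE 0.29, FDR = 1.75e-06), and Krtdap at 271, 342, 382 and 387 against 2.47, 1.71 and 1.39 CPM (log2 ratio 7.55, SE 0.29, FDR = 6.27e-08). The keratins of simple epithelium differed among themselves. Krt18 was higher, at 1478 ± 224 against 998 ± 142 CPM (log2 ratio 0.57, FDR = 0.0169, and not called without SI library 1, at 0.47, or 2, at 0.55), whereas Krt19 fell from 1672 ± 204 to 195 ± 37.97 CPM (log2 ratio -3.10, FDR = 7.21e-07), Krt20 from 1376 ± 111 to 46.96 ± 6.46 CPM (log2 ratio -4.87, FDR = 3.60e-08) and Krt7 from 219 ± 31.2 to 102 ± 8.64 CPM (log2 ratio -1.10, FDR = 2.30e-04). Basal epithelial genes rose in 11 of 14 members and fell in 2, among them Perp, which rose from 158 ± 11.5 to 323 ± 46.2 CPM, and the hemidesmosome integrins Itga6 and Itgb4, which fell (log2 fold changes 1.03, -0.51 and -1.24).

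Transcripts restricted to other organs were detected in the thymic libraries. Of 13 such genes that passed the filter, out of 20 in the list, 12 rose and none fell, with a median of 6.93. Most were nearly absent from SI epithelium and passed through the thymic libraries, so the count says in part which were detected. Csn2, the milk protein beta-casein, was at 451, 434, 555 and 429.6 CPM against 3.72, 2.24 and 2.003 CPM (log2 ratio 7.46, SE 0.30, FDR = 7.11e-08). After subtraction no SI epithelium count of Csn2 was left, but Csn2 was among the thymus-restricted genes on which the share was fitted. Bpifa1, a secreted airway protein, was at 95.6, 88.95, 211 and 131 against 1.58, 0.83 and 0.843 CPM (log2 ratio 6.93, SE 0.46, FDR = 1.58e-06), and Scgb1a1, the club cell secretory protein, at 60.95, 81.00, 136 and 176 against 1.36, 1.05 and 1.11 CPM (log2 ratio 6.59, SE 0.46, FDR = 2.01e-06). Crp, a liver acute-phase gene, ranged from 0.804 to 23.6 CPM among the thymic libraries and was not called. Hox genes, which pattern the body axis, rose in 12 of 26 tested members and fell in none, against 28.7% higher over all genes. Hoxc10 was at 23.4, 11.1, 16.8 and 21.2 CPM against 0.0866, 0.122 and 0.0703 CPM (log2 ratio 7.59, SE 0.59, FDR = 4.55e-06), and Hoxc11 at 11.6, 6.296, 33.4 and 10.9 against 0.238, 0.0244 and 0.0176 CPM (log2 ratio 7.36, SE 1.11, FDR = 4.01e-04).

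The largest increases among protein-coding genes with at least 50 CPM were Cygb, Trim29, Pax9, Axl, Ankrd33b, Col6a1, Ccr4, Prrg3, Hdac9 and Krt1, with log2 fold changes of 7.70 to 8.39. Cygb, a globin of fibroblasts and other cells, was at 35.2, 47.5, 26.9 and 107 CPM against 0.108, 0.195 and 0.176 CPM (log2 ratio 8.39, SE 0.68, FDR = 5.65e-06). Pax9, a pharyngeal pouch factor, was at 51.6, 47.4, 61.6 and 68.03 against 0.346, 0.293 and 0.0703 CPM (log2 ratio 7.94, SE 0.53, FDR = 1.62e-06), and Ankrd33b at 288, 228, 229 and 309 against 1.43, 1.12 and 1.05 CPM (log2 ratio 7.78, SE 0.25, FDR = 3.30e-08). No SI epithelium count of Cygb, Pax9, Ankrd33b, Ccr4, Prrg3 or Hdac9 was left on subtraction. Prrg3 was among the thymus-restricted genes on which the share was fitted. Tnc, the matrix protein tenascin C, was at 1948, 1979.9, 2199 and 2159 CPM in the thymic libraries against 14.9, 11.9 and 9.72 CPM (log2 ratio 7.41, SE 0.22, FDR = 2.72e-08). Cygb, Axl and Col6a1 were highest in thymic library 4, as was the fibroblast gene Dcn, at 19.6, 10.3, 37.3 and 102 CPM against 0.368, 0.146 and 0.193 CPM (log2 ratio 7.47, SE 0.96, FDR = 1.41e-04). The fibroblast and endothelial list summed to 136.4 to 343.5 CPM in the thymic libraries and 6.07 to 7.23 CPM in SI epithelium, with 10 of 11 tested members higher, and its part in these results was not tested. Its other named members were Tek at 79.1 ± 29.01 against 0.689 ± 0.1797 CPM and Acta2 at 30.8 ± 18.7 against 0.216 ± 0.133 CPM (log2 fold changes 6.83 and 7.14). The endothelial marker Cdh5 had 220, 0, 1 and 0 counts in thymic libraries 1 to 4. Pecam1, another endothelial marker, had 63, 17, 63 and 738 counts and was not called. The fibroblast marker Col1a1 had 890, 53, 239 and 152 counts and was called higher.

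The intestinal program was lower. Of 20 intestinal identity factors, 16 fell and none rose, with a median log2 fold change of -4.20. Hnf4a, which sustains absorptive identity, was at 16.6, 15.1, 17.8 and 5.65 CPM in the thymic libraries and 1002, 1034 and 1242 CPM in SI epithelium (log2 ratio -6.30, SE 0.38, FDR = 8.91e-07). Klf5 fell from 625 ± 15.3 to 222 ± 32.6 CPM (log2 ratio -1.50, FDR = 2.47e-05). Elf3 fell from 437 ± 13.3 to 331 ± 19.1 CPM (log2 ratio -0.40, FDR = 0.0226), a call lost in 14 of 20 alternative settings, among them leaving out any 1 SI library or thymic library 2 (log2 ratio -0.34 to -0.43). All 24 enterocyte genes fell, with a median of -5.54. Apoa1, a lipoprotein of fat absorption, was at 94.5, 74.8, 91.7 and 20.4 CPM against 5119, 4160.4 and 4182 CPM (log2 ratio -5.99, SE 0.48, FDR = 5.29e-06). Apoa4 was at 117, 156, 156 and 48.9 against 4182, 3427 and 4335 CPM (log2 ratio -5.06, SE 0.37, FDR = 3.08e-06), Anpep, a brush border peptidase, at 77.8, 72.00, 57.4 and 32.3 against 2969, 3321 and 3929 CPM (log2 ratio -5.83, SE 0.31, FDR = 3.98e-07), and Alpi, the intestinal alkaline phosphatase shown above, at 15.1, 11.7, 10.4 and 1.52 against 1437, 1495 and 1627 CPM (log2 ratio -7.29, SE 0.65, FDR = 1.11e-05). Thymic library 4 was the lowest thymic library for Apoa1, Apoa4, Anpep and Alpi.

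The actin bundle of the brush border split, with 5 of 17 members higher and 11 lower. Avil, an actin-severing protein of the tuft, was at 942, 1005, 1114 and 1270.2 CPM against 25.9, 25.1 and 66.3 CPM (log2 ratio 4.79, SE 0.39, FDR = 5.87e-06), and Espn, an actin-bundling protein, rose from 51.9 ± 7.39 to 186 ± 17.00 CPM (log2 ratio 1.84, FDR = 1.15e-05). Vil1, a relative of Avil in enterocyte microvilli, fell from 1459 ± 52.5 to 139 ± 43.03 CPM (log2 ratio -3.39, FDR = 1.81e-06), Myo1a from 817 ± 76.9 to 32.1 ± 13.4 CPM (log2 ratio -4.67, FDR = 4.55e-06) and the microvillar cadherin Cdhr5 from 2190.3 ± 267 to 523 ± 103 CPM (log2 ratio -2.07, FDR = 7.66e-06).

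Goblet cell genes fell in 11 of 12 members and rose in none, with a median of -6.56. Muc2, the gel-forming mucin, was at 391, 354, 246 and 18.5 CPM in the thymic libraries and 34145, 36719 and 37504 CPM in SI epithelium (log2 ratio -7.16, SE 0.84, FDR = 7.73e-05). Zg16 was at 296, 214, 184 and 1.52 against 30270, 29607 and 33406 CPM (log2 ratio -7.48, SE 1.22, FDR = 6.80e-04), and Tff3, a peptide secreted with mucin, at 157, 158, 122 and 4.22 against 18069, 21641 and 17136 CPM (log2 ratio -7.42, SE 0.97, FDR = 1.60e-04). Library 4, the thymic library without an SI partner, was more than 10 times lower than each of the other thymic libraries for these 3 genes. Fcgbp, a mucus protein, behaved otherwise, at 2048, 1914, 1929.8 and 1694 CPM in the thymic libraries against 25643, 30936 and 26116 CPM (log2 ratio -3.86, SE 0.14, FDR = 4.69e-08). Clca1 was at 137, 109.8, 134 and 79.7 against 12687, 12519 and 12327 CPM (log2 ratio -6.76, SE 0.23, FDR = 3.53e-08). Lypd8, which is not a member of the goblet list, was at 837, 528, 567 and 402 against 12609, 12008 and 12767 CPM (log2 ratio -4.41, SE 0.24, FDR = 4.59e-07). Retnlb was not called, at most 1.10 CPM in any library.

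**Figure D4:**
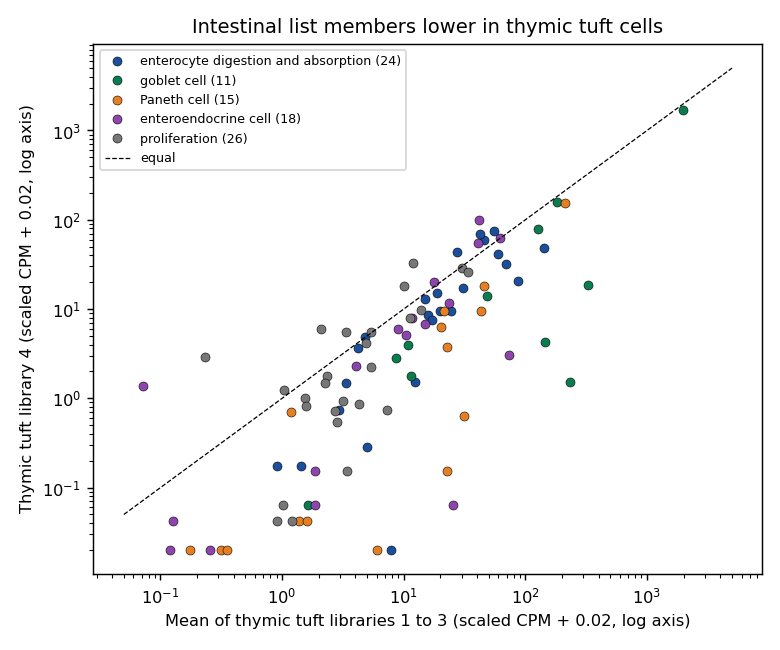
Level in thymic library 4 (vertical axis) against the mean of thymic libraries 1 to 3 (horizontal axis) for members of 5 intestinal lists called lower in thymic tuft cells, as scaled CPM plus 0.02 on log axes; the dashed line marks equal levels. All 11 goblet and 13 of 15 Paneth genes were lowest in library 4, against 17 of 24 enterocyte, 11 of 18 enteroendocrine and 12 of 26 proliferation genes. The share lowest in library 4 was not computed over all genes.

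Paneth cell genes fell in 15 of 16 members. Of the 15, 8 were in thymic library 4 at no more than 10% of their mean in the other thymic libraries. That share was not computed over all genes. Lyz1, the Paneth lysozyme, was at 224, 140.0, 267 and 152 CPM against 5692, 6886 and 6328 CPM (log2 ratio -5.01, SE 0.25, FDR = 2.98e-07). Defa24 was at 47.6, 27.7, 18.97 and 0.615 against 2714, 3085 and 5017 CPM (log2 ratio -7.24, SE 1.05, FDR = 3.11e-04), AY761184 at 27.03, 24.4, 17.2 and 3.74 against 2995, 3316 and 3179.8 CPM and Defa30 at 28.1, 23.04, 16.5 and 0.132 against 2469.7, 2905 and 2828 CPM. These alpha-defensins are near-identical copies, so the split of reads among them is uncertain. Reg3g, an antibacterial lectin, was the member that rose, at 205, 187, 218 and 179.7 CPM against 68.8, 66.4 and 99.3 CPM (log2 ratio 1.34, SE 0.18, FDR = 2.23e-04).

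Enteroendocrine genes fell in 18 of 21 members and rose in 1. Cck, which encodes cholecystokinin, was at 64.9, 69.9, 49.6 and 63.1 CPM against 6474, 7322 and 4563 CPM (log2 ratio -6.63, SE 0.22, FDR = 3.53e-08). Chgb, a granin of secretory granules, was at 96.2, 87.5, 36.9 and 3.06 against 4427, 5911 and 4592 CPM (log2 ratio -6.47, SE 0.91, FDR = 2.58e-04), and Sst, somatostatin, at 63.3, 32.1, 28.98 and 99.8 against 2272, 2099 and 1267 CPM (log2 ratio -5.07, SE 0.46, FDR = 1.16e-05). Cck and Sst stayed at 63.1 and 99.8 CPM in thymic library 4, whereas Chgb was at 3.06 CPM there. Insm1, an endocrine transcription factor, was higher at 16.8, 46.8, 22.9 and 26.7 CPM against 10.2, 10.5 and 5.39 CPM (log2 ratio 1.70, SE 0.43, FDR = 0.00841).

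The largest decreases among protein-coding genes with at least 50 CPM in SI epithelium were Cyp2c29, Afp, Zg16, AY761184, Tff3, Defa3, Cyp2b10, Enpp7, Defa30 and Otc, with log2 fold changes from -7.50 to -7.32. Afp, alpha-fetoprotein, was at 2.06, 1.21, 0.83 and 0 CPM in the thymic libraries and 138, 195 and 229.5 CPM in SI epithelium (log2 ratio -7.50, SE 0.84, FDR = 5.49e-05). Cyp2c29 and Cyp2b10, drug-metabolizing cytochromes, were at 1.12, 0.447, 0.988 and 0.04396 against 161, 94.4 and 106 and at 1.52, 1.57, 1.195 and 0.176 against 186, 180.3 and 184 CPM. Otc, the urea cycle enzyme, was at 1.59, 1.17, 1.004 and 0.0659 against 152, 144 and 168 CPM, and Enpp7, an intestinal sphingomyelinase, at 0.7296, 0.383, 0.335 and 0.02198 against 49.5, 60.6 and 70.95 CPM. On subtraction of the shared counts the thymic mean went from 1.02 to 0 CPM for Afp, from 174 to 0.379 CPM for Zg16, from 110.3 to 1.11 CPM for Tff3 and from 0.307 to 0.0478 CPM for Defa3. The sizes of these decreases therefore have no firm lower end and their order is not firm, and 86 of the 809 genes at least 16-fold lower lost at least 90% of their thymic counts. Zg16 was among the 6 genes whose ratios set the share subtracted from the thymic libraries, so its fall follows in part from that choice. Those 6 genes were not left out of the 86. Thymic library 4 was lowest for Afp, Cyp2c29, Cyp2b10, Otc and Enpp7, and 3 counts there would be 0.0659 CPM.

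Genes of cell division were lower in the thymic libraries. All 26 proliferation genes fell, with a median of -4.54. Mki67 was at 51.02, 25.6, 24.5 and 26.1 CPM against 906, 838 and 1072 CPM (log2 ratio -4.88, SE 0.29, FDR = 7.98e-07), Top2a, the mitotic topoisomerase, at 18.7, 8.91, 7.97 and 33.2 against 406, 344 and 436 CPM (log2 ratio -4.52, SE 0.47, FDR = 3.35e-05), and Ccna2, cyclin A2, at 7.05, 2.02, 5.67 and 4.13 against 231, 173 and 244 CPM (log2 ratio -5.51, SE 0.39, FDR = 2.42e-06). The crypt stem cell list had 13 genes, with 9 lower and 1 higher. Olfm4, a marker of crypt base columnar cells, fell from 736 ± 121 to 47.4 ± 20.5 CPM (log2 ratio -3.95, FDR = 5.24e-06), Prom1 from 237 ± 24.6 to 25.2 ± 8.77 CPM (log2 ratio -3.23, FDR = 5.87e-06) and Slc12a2 from 227 ± 28.9 to 55.9 ± 18.6 CPM (log2 ratio -2.02, FDR = 9.20e-05). Msi1, an RNA-binding protein, rose from 17.9 ± 2.33 to 79.3 ± 22.5 CPM (log2 ratio 2.15, FDR = 8.91e-05).

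Mitochondrial transcripts were a smaller share of the thymic libraries. Genes of the mitochondrial chromosome took 5.22 ± 0.652% of counts in thymic tuft cells and 20.99 ± 2.58% in SI epithelium, a difference of -15.8 percentage points in which the groups did not overlap (exact permutation test, two-sided, p = 0.0571, the smallest that 4 against 3 libraries allow). All 8 mitochondrial messenger RNAs tested fell, with a median of -2.88. mt-Co1 was at 5299, 5015, 5810.0 and 8511 CPM against 65632, 49420 and 50642 CPM (log2 ratio -3.16, SE 0.21, FDR = 1.56e-06), with mt-Cytb at -2.52 and mt-Nd1 at -2.99 on the log2 scale. mt-Co2, mt-Co3, mt-Atp6, mt-Atp8 and mt-Nd4l had at most 2 counts in any of the 7 libraries and were not tested. Nuclear genes of oxidative phosphorylation fell in 58 of 79 members and rose in none, with a median of -1.28, and the examples Atp5b, Atp5a1 and Cox6a1 changed by -1.41, -1.42 and -0.68 on the log2 scale. Cox6a1 was not called without SI library 3 (-0.57). Cytosolic ribosomal protein genes fell in 58 of 82 members and rose in 1, with a median of -1.27. Rpl4 fell from 1216 ± 146 to 290.4 ± 43.7 CPM (log2 ratio -2.06, FDR = 3.95e-06) and Rps3 from 808 ± 124 to 333 ± 65.97 CPM (log2 ratio -1.28, FDR = 3.38e-04). The exception was Rps27a, at 16.9 ± 8.42 against 6.11 ± 1.32 CPM (log2 ratio 1.47, FDR = 0.0355), whose groups overlapped and which was not called without any 1 of SI libraries 1 to 3 or thymic libraries 2 to 4 (log2 ratio 1.21 to 1.65).

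The thymic libraries also spread their counts over more genes. At 1 unscaled CPM or above, 15452 ± 589 genes were detected in thymic tuft cells and 12586 ± 63.0 in SI epithelium, and 15402 ± 573 and 12465 ± 58.4 after subtraction. The 50 most abundant genes took 16.3 ± 0.455% of counts in thymic tuft cells and 40.2 ± 1.83% in SI epithelium. In both measures the groups did not overlap, with the same smallest exact permutation p of 0.0571.

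Of 19 immediate early and heat shock genes, which respond to handling, 5 were higher, a share near the 28.7% of all genes, and 9 were lower, against 21.3% of all genes. The heat shock genes Dnajb1, Hsph1 and Hspa1a rose, with Hspa1a at 382, 338, 407 and 393 CPM against 124, 147 and 47.9 CPM (log2 ratio 1.84, SE 0.33, FDR = 0.00115), Dnajb1 at 931 ± 119 against 369.6 ± 137 CPM (log2 ratio 1.34, FDR = 0.00187) and Hsph1 at 735 ± 142 against 384 ± 159 CPM (log2 ratio 0.94, FDR = 0.0235). The immediate early gene Egr1 was at 2094, 1704, 1925 and 2104 CPM against 5373, 6079 and 6518 CPM (log2 ratio -1.61, SE 0.14, FDR = 7.52e-06), and Zfp36 and Jun fell as well (log2 fold changes -0.92 and -0.92). The dissociation protocols differed between the groups, and their part in these values was not tested. Among red blood cell genes Alas2 rose to 3.25 ± 1.29 CPM from 0.263 ± 0.247 CPM (log2 ratio 3.63, FDR = 0.0222, not called without SI library 1, at 3.61, or 3, at 3.06), while Hbb-bs and Hba-a1 stayed at or below 2.08 CPM in every library and were not called.

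**Figure D5:**
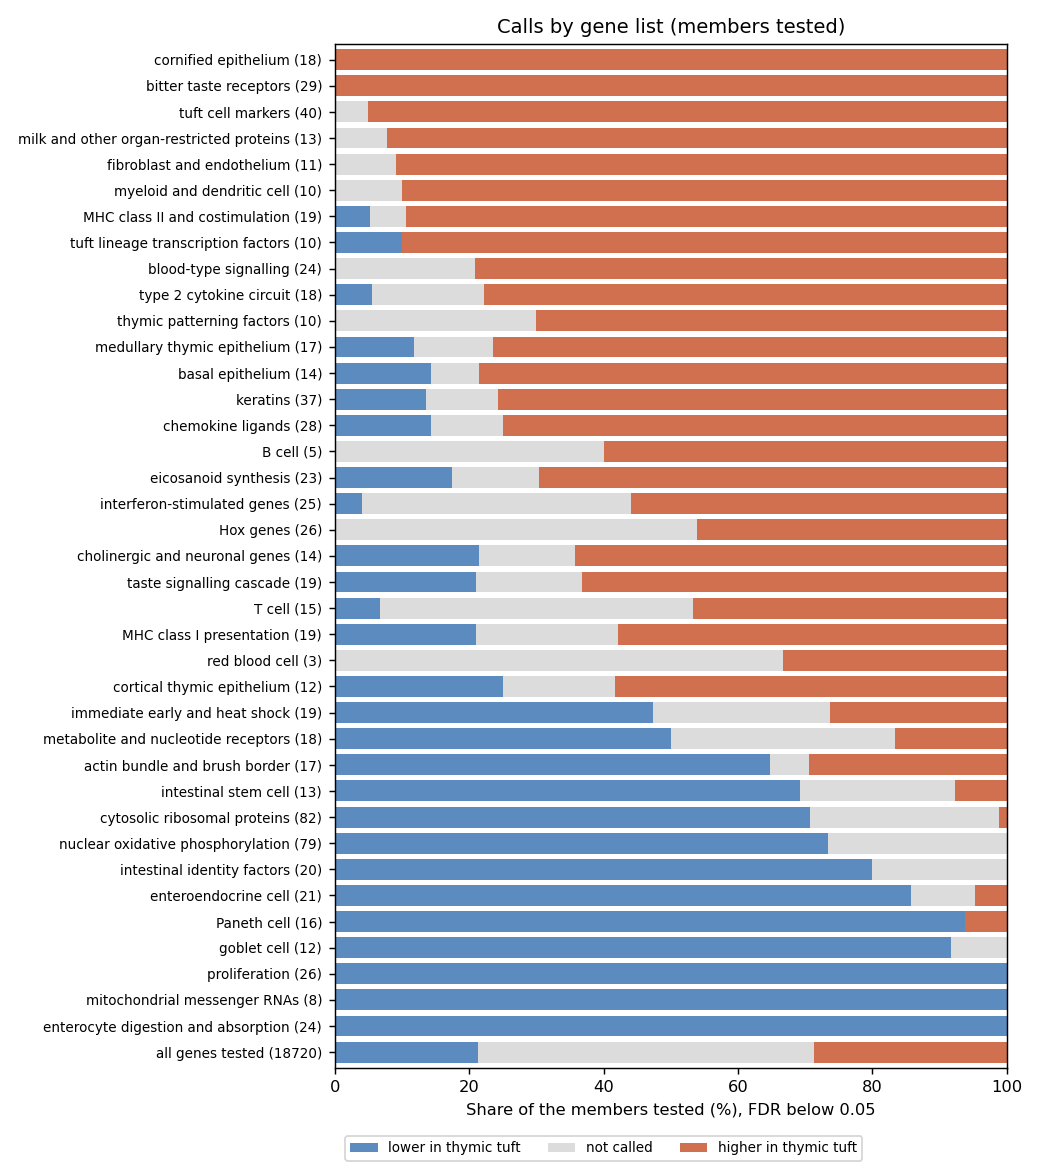
Share of the tested members of each of 38 gene lists that were lower (blue), not called (grey) or higher (red) in thymic tuft cells at an FDR below 0.05, with the number tested in brackets. The bottom bar gives all 18720 genes, of which 28.7% were higher and 21.3% lower; the cornified, bitter receptor, tuft marker, organ-restricted, fibroblast, myeloid and MHC class II lists lie at the top, the thymic lists lower, and the enterocyte, mitochondrial and proliferation lists just above the bottom bar.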

How the data were processed

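RNA-seq gene counts were compared between 4 thymic tuft and 3 SI epithelium libraries, each from a single mouse. The sample labels do not identify the mice, so whether any mouse gave both a thymic and an SI library is not known. The main test treated the libraries as independent. Libraries were made from poly(A) RNA by NuGEN Ovation V2 amplification and Nextera XT tagmentation, per the labels' protocols. The deposited values were whole-number counts per gene. The submitters' processing notes name STAR, GRCm38 and DESeq2, and versions are not given in the sources used here. The kits do not mark strand, so reads of overlapping genes, such as Trpm5 and Tssc4, Avil and Tsfm, Il17rb and Actr8, Cygb and Prcd, Pax9 and Slc25a21, Hoxc10 and Hoxc5, Cxcl10 and Art3, Vil1 and Usp37, Irf7 and Phrf1, Ccl25 and Elavl1, or Atp5a1 and Haus1, cannot be told apart. GENCODE M21 gave symbols for 42548 of 43432 identifiers.

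Genes were filtered with filterByExpr (minimum count 10, minimum total 15), scaled by TMM and tested with edgeR 4.0.16 (R 4.3.3) by the quasi-likelihood test, with an FDR threshold of 0.05. DESeq2 1.42.0 was an alternative. Shared counts were estimated by weighted least squares, and subtraction was an alternative. Trimmed and other weights were tried after the data were seen. Floors of 3 counts cover counting error only. Each SE is the absolute log2 ratio divided by the square root of the quasi-likelihood F statistic, which includes the spread between libraries. The test and the share fit were tested on simulated data.

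The members and lists were chosen with earlier results of these data known. Named genes were a fixed set of 6, the 10 largest changes each way at 50 CPM or more, the 8 most abundant each way, and up to 3 of each list each way at 10 CPM or more, with exceptions and controls. The TMM-scaled CPM used in this rule was chosen after plain CPM gave some genes the opposite sign from their fold change, and this changed which genes were named. The pattern for ribosomal protein genes was corrected after the files were read. Alpi, Kctd12 and H2-Eb1 were named for their sequences after their values were seen.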

Additional observations from a re-analysis of the deposited data

Results flagged for a closer look

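Of 176 genes examined over the 4 thymic libraries, 11 had 1 library whose gap to the nearest other, relative to the range, exceeded Dixon's critical value, which chance exceeds in about 1 in 20 genes. Levels are scaled CPM. Ptgs1 was lowest in thymic library 3, at 441.9 against 528.5 to 537.6 in the others. Bche was highest in library 2, at 56.75 against 25.96 to 30.42. Fezf2 was lowest in library 4, at 276.7 against 335.3 to 342.6. H2-Ab1 was lowest in library 1, at 1658 against 2134 to 2209. Oasl2 was highest in library 4, at 813.8 against 667.3 to 680.8. Ccl22 was highest in library 3, at 609.9 against 179.2 to 224.3. Ccl28 was lowest in library 2, at 3.616 against 6.089 to 6.473. Csn2 was highest in library 3, at 555.4 against 429.6 to 450.8. Elf3 was lowest in library 2, at 302.9 against 338.5 to 343.1. Mki67 was highest in library 1, at 51.02 against 24.53 to 26.14. Hbb-bs was highest in library 2, at 0.8933 against 0 to 0.08792.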

How the results depend on the processing

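The 5370 genes higher became 3456 when 10 CPM in 3 libraries was required, which left 10632 genes to test. The 3984 genes lower became 2136 when a change beyond 2-fold was tested. The other settings run kept both counts within 1.5 times. Leaving out 1 library gave 4014 to 5511 genes higher and 2993 to 4300 lower, 37 to 38 tuft markers higher, 564 to 620 list members called and a mitochondrial difference of -14.4 to -16.97 percentage points. With the replicate block, 5250 genes were higher and 4394 lower; same-numbered libraries correlated at -0.024, 0.095 and -0.039, so the numbers were not taken to pair the mice. Of 168 called genes examined, 139 kept call and direction in each of the 20 alternatives that tested them. The other 29 lost the call in at least 1, and none reversed. A gene left out of an alternative was not counted there as losing its call. Reversals were among genes without a call, and their cause was not tested. Siglecf was at a log2 ratio of -0.011 with thymic library 4 alone, a fit without thymic replicates whose spread comes from SI epithelium. With the replicate block Retnlb was at 0.31 and Hba-a1 at 0.038, and Hba-a1 was at 0.093 with thymic library 4 alone. Leaving out 1 library moved Retnlb between -0.93 and 0.86, Hbb-bs between -2.26 and 0.42 and Hba-a1 between -0.72 and 1.74. The mean shared fraction was 0.636% and 0.531% with a 5000-count threshold. Alternatives added after seeing the data gave 0.524%, 0.713% and 0.647%, and subtraction without thymic library 4 gave 5627 genes higher and 3803 lower.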

Other observations

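Gene families outside the lists also differed. The Skint genes, whose products shape skin-resident T cells, were higher for 10 of 10 members tested. Kallikrein (Klk) genes were higher for 20 of 24 and lower for 1, and Serpinb protease inhibitors were higher for 14 of 18 and lower for 1. Collagen genes were higher for 29 of 39 and lower for 1, beside the fibroblast sums given above. Mitochondrial ribosomal protein genes were lower for 30 of 47 Mrpl and 14 of 29 Mrps members, and none was higher. Many Skint, Klk and Serpinb members were at or near 0 in SI epithelium and passed the filter through the thymic libraries, so these counts describe in part which were detected. Of all genes tested, 28.7% were higher and 21.3% lower. Families were chosen after the results were seen, and no test was made of them as groups.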
